A study of Mus musculus with 6 samples.

Results

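The genes described here are 45 genes of the NRF2 antioxidant and glutathione system, chosen by gene name from the 25166 genes of the deposited table and read in RNA-seq libraries of muscle stem cells (MuSCs) from 3 Sirt6mKO and 3 control samples. In the Sirt6mKO mice a Cre recombinase expressed from the *Pax7* locus (Pax7-ICNCre) removes the floxed exons 4 to 6 of *Sirt6*, so that the gene is lost in all cells that have expressed PAX7 and not only in quiescent MuSCs. The labels call the controls wild type, whereas the legend of the supplementary figure that shows these mice describes them as Sirt6 fl/fl without Cre, on which reading both groups carry the floxed allele. The mice had a C57BL/6 background and, by that legend, were males of 12 weeks. The cells came from limb and trunk muscle and were sorted as negative for SCA1, CD45 and CD31 and positive for integrin-a7 and CD34 or for a reporter, with 100 to 200 cells per library, and the sources used here do not say whether each sample was a single mouse. The values are called signal below. They are the reads of each gene after scaling between libraries and rounding to whole numbers, so that 1 read was worth between 0.729 and 1.792, and 1267027 to 3209958 reads lay behind each library, with control replicate 3 the shallowest.

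NRF2, encoded by *Nfe2l2*, is a transcription factor that is kept low by KEAP1, an adaptor that hands it to a CUL3 ubiquitin ligase. Electrophiles and oxidants modify cysteines of KEAP1, after which NRF2 accumulates, pairs with small MAF proteins and binds antioxidant response elements in front of genes that make and use glutathione, reduce thioredoxin and peroxiredoxins, and provide NADPH. In muscle stem cells, which rest for long periods and then divide in injured and inflamed tissue, this system buffers reactive oxygen species. SIRT6 is a chromatin-bound deacetylase of histone H3, and the comparison asks which of these genes differ in level between MuSCs with and without it.

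Of the 45 genes, 43 had a mean signal of at least 5 and were tested. Only 4 passed the test, which required a limma-trend p adjusted by Benjamini-Hochberg across the 14227 genes tested to be 0.05 or less, and all 4 were higher in Sirt6mKO: the glutathione S-transferases *Gstm1* and *Gstm2*, the extracellular superoxide dismutase *Sod3* and the transketolase *Tkt*. These 4 are 9.3% of the tested members, and 2.64% of all tested genes passed the test in that direction. No member passed it in the lower direction, where the share over all genes was 1.88%, and the 8 members with an unadjusted p under 0.05 (the 4 called, *Nfe2l2*, *Gstt1*, *Prdx6* and *Sod1*) were all higher in Sirt6mKO. These 8 are 18.6% of the tested members, close to the 18.1% of all tested genes with such a p in either direction. A change of at least 2-fold in addition was met by *Gstm2*, *Sod3* and *Tkt*, against 1.57% of all genes. In 8 members (18.6%) every Sirt6mKO library lay above every control library, as in 11.1% of all genes, and in 2 members, *Gstp1* and *Pgd*, every Sirt6mKO library lay below, as in 10.1% of all genes. The log2 fold changes of the 43 members ran from -0.53 for *Hmox1* to 1.56 for *Gstm2*, with a median of 0.14, where the median over all tested genes was 0.002.

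**Figure D1:**
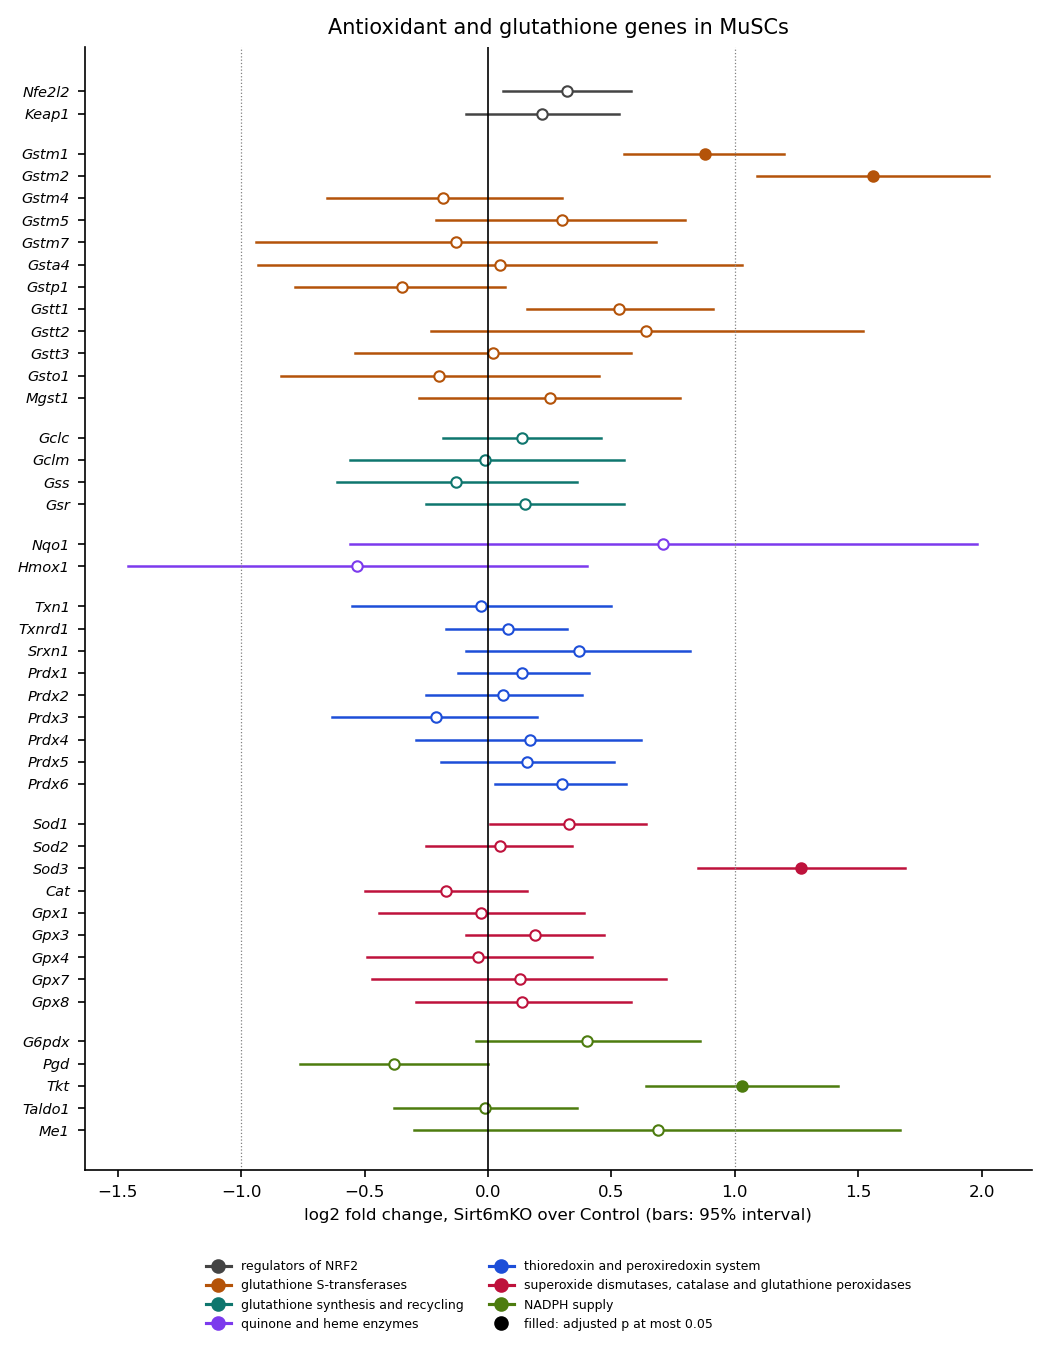
Log2 fold change of Sirt6mKO over control for the 43 tested genes (x axis), grouped by role and coloured accordingly, with 95% intervals as bars and filled points for an adjusted p of at most 0.05. The 4 filled points lie between 0.88 and 1.56, and the other 39 lie between -0.53 and 0.71.

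For most of the other members the data bound the size of any difference. Among the 39 members that were not called, the 95% interval of the log2 fold change stayed within 1 of 0, that is within a 2-fold difference in either direction, for 34. That is 79.1% of the 43 tested members, called ones included, against 66.2% of all tested genes. The members whose interval was wider were the weakly detected *Gsta4*, *Gstt2*, *Nqo1*, *Hmox1* and *Me1*, whose intervals at this depth reached past a 2-fold difference.

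The promoters of the genes were read first for the sequence that NRF2 binds. The rule used gene names and not sequence, but the names are those of the NRF2 system. A higher share than over all genes may therefore follow from the choice. RefSeq promoters, from 250 bases before to 50 after each annotated start on GRCm38.p6, were at hand for 38 members. The core of the antioxidant response element, TGACNNNGC on either strand, stood in the promoter of 12 of these genes (31.6%), against 14.0% of the 27025 genes with a promoter in the table. In the 250 bases before the start alone, the shares were 23.7% and 11.5%. A match of this short core is a description and not a bound site.

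*Gstm1*, *Gstm2* and *Tkt*, the called members with a promoter in the table, held no match. They are shown in lower case because nothing in them matches. Sites farther from the start were not searched, so the absence holds for this window only. *Nqo1*, a widely used readout of NRF2 activity, held no match in it either. *Gstm1* has a further annotated start without a match, which is not shown.
Gstm1, chr3:108017924-108018223, minus strand: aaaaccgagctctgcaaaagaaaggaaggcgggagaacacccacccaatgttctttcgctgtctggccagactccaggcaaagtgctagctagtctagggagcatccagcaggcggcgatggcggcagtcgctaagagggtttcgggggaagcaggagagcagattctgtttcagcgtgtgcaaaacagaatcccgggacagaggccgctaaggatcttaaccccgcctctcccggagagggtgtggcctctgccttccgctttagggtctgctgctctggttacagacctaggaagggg
Gstm2, chr3:107986371-107986670, minus strand: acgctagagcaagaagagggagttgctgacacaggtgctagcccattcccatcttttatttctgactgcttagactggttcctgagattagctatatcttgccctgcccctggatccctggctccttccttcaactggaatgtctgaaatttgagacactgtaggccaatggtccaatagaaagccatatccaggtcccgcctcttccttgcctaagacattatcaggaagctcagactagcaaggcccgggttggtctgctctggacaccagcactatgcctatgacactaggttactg
Tkt, chr14:30548881-30549180, plus strand: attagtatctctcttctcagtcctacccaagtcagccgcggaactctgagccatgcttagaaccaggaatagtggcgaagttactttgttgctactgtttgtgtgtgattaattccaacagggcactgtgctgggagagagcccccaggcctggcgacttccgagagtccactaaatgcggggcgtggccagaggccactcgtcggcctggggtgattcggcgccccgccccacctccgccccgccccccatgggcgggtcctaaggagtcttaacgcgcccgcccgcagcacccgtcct
*Gclm*, *Prdx1* and *Me1*, which encode a subunit of the enzyme that starts glutathione synthesis, a peroxiredoxin and malic enzyme, held the core, which is given in capitals. None of the 3 was called.
Gclm, chr3:122245307-122245606, plus strand: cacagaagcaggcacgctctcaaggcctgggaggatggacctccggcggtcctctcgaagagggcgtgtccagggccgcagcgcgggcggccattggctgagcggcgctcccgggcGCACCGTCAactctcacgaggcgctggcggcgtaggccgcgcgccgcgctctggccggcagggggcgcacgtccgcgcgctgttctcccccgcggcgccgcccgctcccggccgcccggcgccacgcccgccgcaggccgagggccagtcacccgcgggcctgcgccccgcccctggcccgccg
Prdx1, chr4:116685349-116685648, plus strand: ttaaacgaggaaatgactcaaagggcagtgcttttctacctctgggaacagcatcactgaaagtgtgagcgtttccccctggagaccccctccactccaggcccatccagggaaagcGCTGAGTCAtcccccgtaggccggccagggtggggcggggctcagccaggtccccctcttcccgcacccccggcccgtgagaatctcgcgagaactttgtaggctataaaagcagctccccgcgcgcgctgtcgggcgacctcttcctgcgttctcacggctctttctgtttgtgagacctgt
Me1, chr9:86695865-86696164, minus strand: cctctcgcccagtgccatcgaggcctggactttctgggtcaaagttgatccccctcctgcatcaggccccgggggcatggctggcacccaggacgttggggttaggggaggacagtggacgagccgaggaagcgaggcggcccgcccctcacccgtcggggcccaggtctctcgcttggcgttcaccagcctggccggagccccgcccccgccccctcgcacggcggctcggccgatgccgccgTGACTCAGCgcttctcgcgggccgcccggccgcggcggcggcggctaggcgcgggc
In *Prdx1* and *Me1* the same letters also contain TGACTCA or its complement, the site of the AP-1 factors FOS and JUN. The core of *Gclm* lay 134 bases before the start, that of *Prdx1* 133 bases and that of *Me1* 6 bases.

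None of the 12 members with a match was called, where 2.64% of all tested genes were called higher and 1.88% lower. Shares this small can leave 12 genes without a call. The log2 fold changes of the 12 members ran from -0.38 to 0.69 with a median of 0.27, and 9 were above 0. The 24 tested members whose promoters had no match included *Gstm1*, *Gstm2* and *Tkt* and had a median of 0.06, with 14 above 0. *Sod3* was among the 7 members not found in the promoter table.

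**Figure D2:**
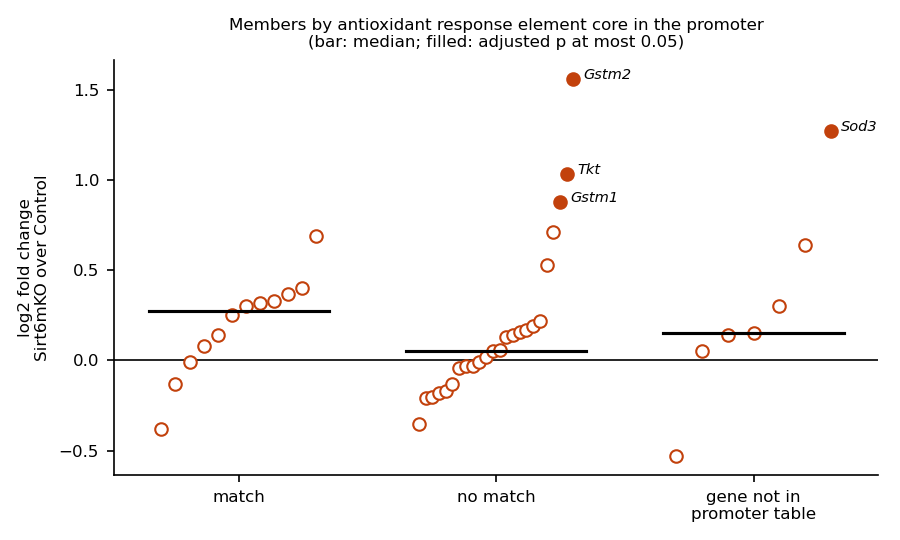
Log2 fold change of Sirt6mKO over control (y axis) for tested members with the antioxidant response element core in the promoter, without it, and for members not in the promoter table. Each point is a gene, bars are medians and filled points have an adjusted p of at most 0.05, and none of the 12 genes with the core is filled.

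The regulators of the pathway were measured at moderate levels and neither was called. *Nfe2l2* had signals of 262, 243 and 266 in the Sirt6mKO libraries and of 224, 203 and 190 in the controls, so the groups did not overlap. Its log2 fold change was 0.32 with a standard error of 0.12, and the adjusted p was 0.17 (limma-trend). *Keap1* gave 119, 132 and 132 in Sirt6mKO and 100, 126 and 104 in controls, with overlapping groups, a log2 fold change of 0.22 (SE 0.14) and an adjusted p of 0.48. The 95% interval of the difference reached from 0.06 to 0.58 for *Nfe2l2* and from -0.09 to 0.53 for *Keap1*. These are levels of messenger RNA, whereas NRF2 is regulated mainly through the stability of the protein, which was not measured.

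The glutathione S-transferases, which couple glutathione to electrophiles, held 2 of the 4 called genes. Of 13 members 12 were tested, and their median log2 fold change was 0.15. *Gstm1*, a cytosolic transferase of the mu class, had signals of 1186, 1120 and 1074 in Sirt6mKO and of 803, 567 and 506 in controls. Every Sirt6mKO library lay above the highest control, and the means were 1127 ± 56.3 and 625 ± 157 (SD, n = 3). The log2 fold change was 0.88 (SE 0.15), a 1.83-fold difference, at an adjusted p of 0.006 (limma-trend).

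*Gstm2*, another mu class enzyme, had the largest log2 fold change of the 43 tested members. Its signals were 288, 238 and 263 in Sirt6mKO and 129, 87 and 61 in controls, with means of 263 ± 25.0 and 92.3 ± 34.3 (SD, n = 3). The lowest Sirt6mKO library was well above the highest control. The log2 fold change was 1.56 (SE 0.22), a 2.95-fold difference, with an adjusted p of 0.0017 (limma-trend). In both genes control replicate 1 was the highest and control replicate 3 the lowest of the controls.

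The mu class genes lie side by side on chromosome 3, from 107895821 to 108044894 on GRCm38 (149.1 kb). *Gstm2* occupies chr3:107981702-107986453 and *Gstm1* chr3:108012255-108017973, both on the minus strand, with only a pseudogene annotated between them. The other tested genes of the cluster were not called. *Gstm4* had 32, 37 and 32 in Sirt6mKO and 32, 42 and 41 in controls (log2 fold change -0.18, adjusted p 0.74, limma-trend). *Gstm5* gave a log2 fold change of 0.30 and *Gstm7* one of -0.13, with adjusted p of 0.56 and 0.91 (limma-trend) and overlapping groups in both. *Gstm3*, which is not a member of the list, gave 0.32 with an adjusted p of 0.69 (limma-trend), and *Gstm6*, likewise not a member, was too low to test.

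**Figure D3:**
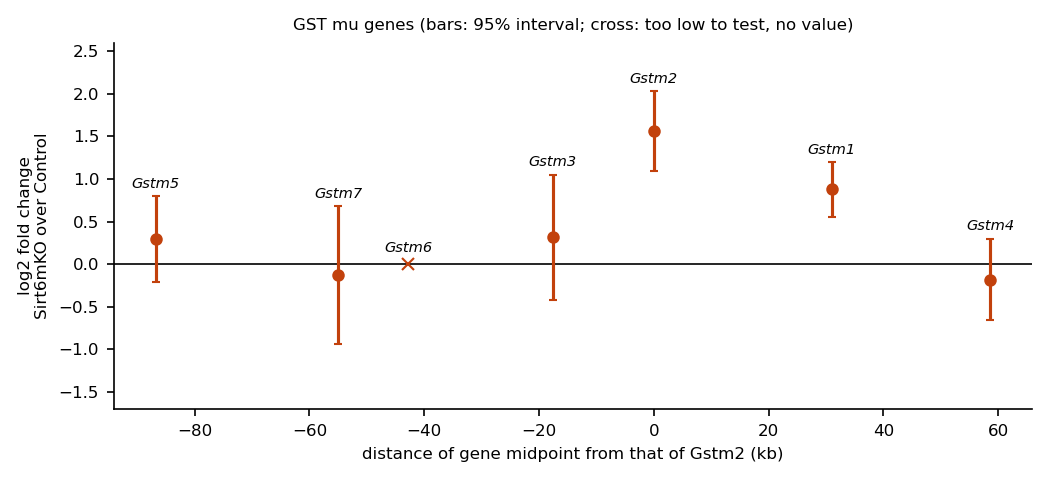
Log2 fold change of Sirt6mKO over control (y axis, bars are 95% intervals) for the mu class genes against the distance of the gene midpoint from that of *Gstm2* in kb (x axis). *Gstm2* and *Gstm1*, 31.0 kb apart, lie above 0 with their whole intervals, and the cross marks *Gstm6*, which was too low to test.

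Within each library the log2 ratio of *Gstm2* to *Gstm1* was -2.04, -2.23 and -2.03 in Sirt6mKO and -2.63, -2.69 and -3.03 in controls, a difference of 0.69. *Gstm2* over *Gstm4* was higher in Sirt6mKO by 1.74 and *Gstm1* over *Gstm4* by 1.05, whereas *Gstm1* over *Gstm5* overlapped between the groups (difference 0.58). The genes were set against each other because they were called, so these ratios are a description and carry no test. The 95% intervals of *Gstm5* (-0.21 to 0.80) and *Gstm3* (-0.42 to 1.05) overlapped that of *Gstm1* (0.55 to 1.2).

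Reads of near-identical copies could be split between the mu class genes. Of the windows of 75 bases along the transcripts, which is the read length, 11.65% in *Gstm1* also occurred in other genes, of which *Gstm2-ps1* and *Gstm3* shared the most. In *Gstm2* 1.85% also occurred in the pseudogene *Gm12499*. *Gstm1* and *Gstm2* shared no such window with each other, and *Sod3* and *Tkt* shared none with any gene. Among the other transferases, 29.18% of the windows of *Gstp1* occurred in other genes, with *Gstp2* and a pseudogene sharing the most, so the value of *Gstp1* is uncertain.

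*Gstt1*, a theta class transferase, and *Gstp1*, of the pi class, also had groups that did not overlap, in opposite directions. *Gstt1* had 82, 69 and 85 in Sirt6mKO and 60, 50 and 52 in controls, but the difference of 0.53 on the log2 scale (SE 0.17) did not pass the test (adjusted p 0.11, limma-trend). *Gstp1* had 42, 45 and 35 in Sirt6mKO and 50, 56 and 50 in controls, all lower without passing the test (log2 fold change -0.35, adjusted p 0.38, limma-trend). The remaining transferases *Gsta4*, *Gstt2*, *Gstt3*, *Gsto1* and *Mgst1* overlapped between groups, with log2 fold changes from -0.20 to 0.64. *Mgst3*, a microsomal transferase, was too low to test, with 4, 3 and 0 in Sirt6mKO and 4, 7 and 2 in controls. The 13 genes summed to 1855, 1700 and 1737 in the Sirt6mKO libraries and to 1273, 1042 and 895 in the control libraries, a ratio of means of 1.65, of which *Gstm1* and *Gstm2* make up most.

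The genes that make and recycle glutathione gave 0 called of 4 tested and 0 at an unadjusted p under 0.05 (limma-trend). Over all tested genes 2.64% were called higher, 1.88% were called lower and 18.1% had such a p, so that 4 genes can be left without a call. *Gclc*, the catalytic subunit of glutamate-cysteine ligase, *Gclm*, its modifier, *Gss*, glutathione synthetase, and *Gsr*, glutathione reductase, had log2 fold changes of 0.14, -0.01, -0.13 and 0.15, all within 1 of 0 over their 95% intervals. *Slc7a11*, the cystine transporter that supplies cysteine and a well known target of NRF2, was barely detected, with 2, 1 and 1 in Sirt6mKO and 0, 1 and 0 in controls, and was not tested. The sum of the 5 genes was 252 to 262 in Sirt6mKO and 228 to 263 in controls.

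*Nqo1* and *Hmox1*, a quinone reductase and heme oxygenase 1 that are widely used as readouts of NRF2 activity, both had low signals. *Nqo1* was near the limit of detection. *Nqo1* had 6, 4 and 9 in Sirt6mKO and 1, 7 and 4 in controls, and *Hmox1* had 10, 11 and 9 in Sirt6mKO and 25, 18 and 7 in controls. The groups overlapped in both, and neither log2 fold change (0.71 and -0.53) passed the test, with an adjusted p of 0.58 for each (limma-trend).

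The thioredoxin and peroxiredoxin genes, which reduce peroxides and oxidised proteins, gave 0 called of 9 tested, with 1 of the 9 at an unadjusted p under 0.05, and the 95% interval lay within 1 of 0 for all 9. *Txnrd1*, thioredoxin reductase, had 256, 239 and 266 in Sirt6mKO and 229, 242 and 251 in controls, a log2 fold change of 0.08. *Srxn1*, which repairs overoxidised peroxiredoxins, gave 0.37 with an adjusted p of 0.40 (limma-trend). *Prdx1*, with 270, 251 and 297 in Sirt6mKO and 224, 252 and 265 in controls, gave 0.14. The group as a whole ran from -0.21 for *Prdx3* to 0.37 for *Srxn1*. *Prdx6* was the only one of the 9 with separate groups, with a log2 fold change of 0.30 and an adjusted p of 0.22 (limma-trend).

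Of the superoxide dismutases, catalase and glutathione peroxidases, only *Sod3* was called among 9 tested. *Sod3*, a secreted enzyme that binds heparan sulphate outside cells, had 498, 456 and 369 in Sirt6mKO and 245, 182 and 133 in controls, so that the lowest Sirt6mKO library lay above the highest control. The means were 441 ± 65.8 and 187 ± 56.2 (SD, n = 3). The log2 fold change was 1.27 (SE 0.19), a 2.41-fold difference, with an adjusted p of 0.0029 (limma-trend). It lies on chr5:52363791-52371418.

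The dismutases inside the cell were not called. *Sod1*, the cytosolic enzyme, had 476, 342 and 420 in Sirt6mKO and 279, 343 and 362 in controls (log2 fold change 0.33, adjusted p 0.25, limma-trend), with groups that overlapped because Sirt6mKO replicate 2 fell among the controls. *Sod2*, the mitochondrial enzyme, gave 0.05 with a 95% interval from -0.25 to 0.34. The ratio of *Sod3* to *Sod1* was higher in Sirt6mKO by 0.94 on the log2 scale.

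*Gpx3*, a secreted glutathione peroxidase, was by far the most abundant member. It had 5407, 4736 and 4392 in Sirt6mKO and 4743, 4205 and 3807 in controls, with overlapping groups, a log2 fold change of 0.19 (SE 0.13) and an adjusted p of 0.50 (limma-trend). It made up 50.2% of the summed signal of the 45 members in controls and 46.8% in Sirt6mKO. *Cat*, *Gpx1*, *Gpx4*, *Gpx7* and *Gpx8* ranged from -0.17 to 0.14 in log2 fold change, none of them called. For *Gpx4*, 29.76% of the windows of read length occurred in other annotated copies, so its value is uncertain.

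**Figure D4:**
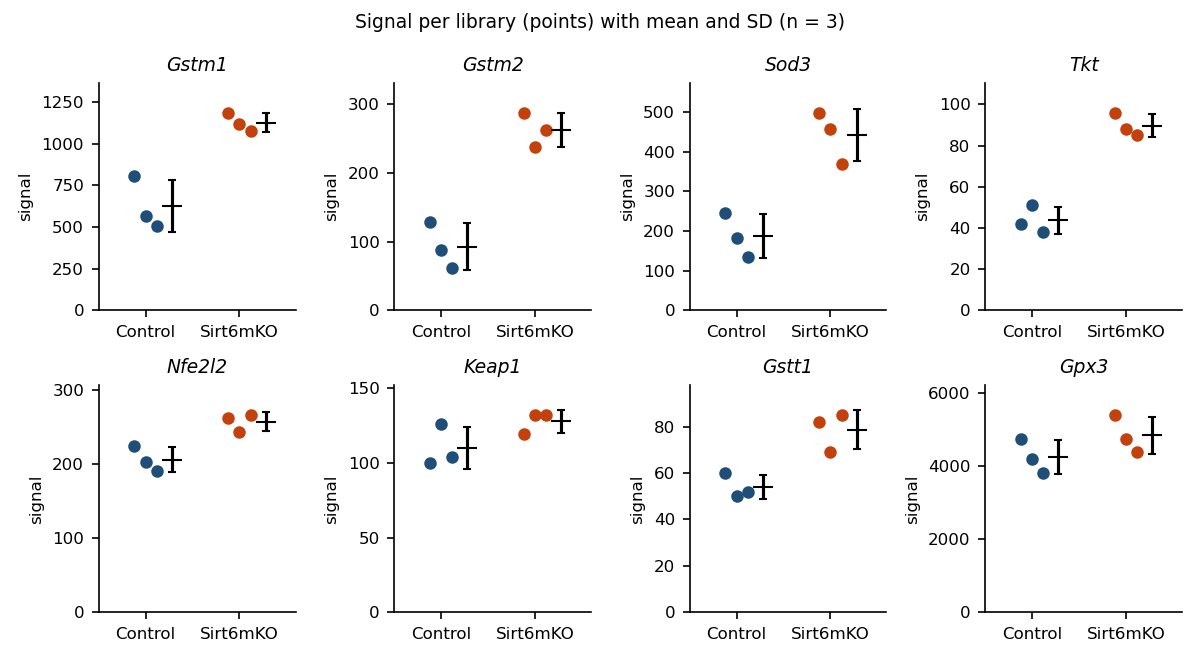
Signal per library (points) for the 4 called genes, the 2 regulators, *Gstt1* and *Gpx3*, with control in blue and Sirt6mKO in orange and the mean with SD (n = 3) beside each group. In the called genes every Sirt6mKO point lies above every control point, whereas in *Keap1* and *Gpx3* the groups overlap.

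Among the genes that supply NADPH, *Tkt* was higher and the others were not called. *Tkt*, an enzyme of the non-oxidative arm of the pentose phosphate pathway, had 96, 88 and 85 in Sirt6mKO and 42, 51 and 38 in controls, with means of 89.7 ± 5.69 and 43.7 ± 6.66 (SD, n = 3). Its log2 fold change was 1.03 (SE 0.18), a 2.04-fold difference, with an adjusted p of 0.0061 (limma-trend). It lies on chr14:30548359-30574720.

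*Pgd*, of the oxidative arm, had 59, 49 and 47 in Sirt6mKO and 65, 71 and 66 in controls, every library lower without passing the test (log2 fold change -0.38, adjusted p 0.28, limma-trend). The ratio of *Tkt* to *Pgd* was 0.69, 0.83 and 0.84 on the log2 scale in Sirt6mKO and -0.62, -0.47 and -0.78 in controls. *G6pdx*, which opens the oxidative arm, gave a log2 fold change of 0.40 (adjusted p 0.35, limma-trend), and *Taldo1*, which works beside *Tkt*, had 195, 122 and 175 in Sirt6mKO and 146, 179 and 163 in controls, a log2 fold change of -0.01. *Me1* gave 12 in each Sirt6mKO library and 10, 3 and 11 in controls, with separate groups at a low signal, and an adjusted p of 0.48 (limma-trend).

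Levels were compared between genes as signal per kb of merged exons. In controls *Gpx3* stood at 2350, *Gstm1* at 425, *Sod1* at 82.6, *Prdx1* at 81.2 and *Taldo1* at 74.9, in that order. *Gstm2* (55.0 in controls, 157 in Sirt6mKO) and *Sod3* (49.9 and 118) were of the order of *Nfe2l2* (54.2 and 67.7) in controls, while *Tkt* stood lower at 5.94 and 12.2. *Slc7a11* was lowest with 0.0237 and 0.0955. All 45 genes together summed to 11230, 9903 and 9932 in the Sirt6mKO libraries and to 9070, 8521 and 7839 in the control libraries.

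**Figure D5:**
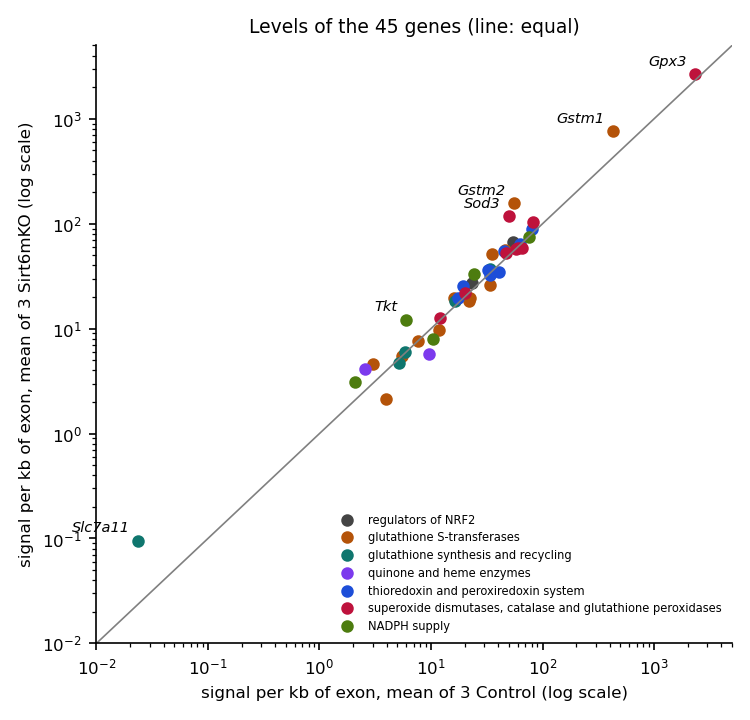
Mean signal per kb of exon in the 3 Sirt6mKO libraries (y axis) against that in the 3 control libraries (x axis) for all 45 genes, coloured by role, on log scales, with the line of equal level. *Gpx3* and *Gstm1* lie at the upper right, *Slc7a11* at the lower left, and *Gstm2*, *Sod3* and *Tkt* lie above the line.

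The calls of *Gstm2* and *Sod3* were kept when each library was left out in turn and in each of the other 11 fits tried. Those of *Gstm1* and *Tkt* were lost when Sirt6mKO replicate 1 was left out, where the adjusted p was 0.055 for each and the log2 fold changes were 0.84 and 0.98 (limma-trend).

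The rest of the pathway was read from lists of 89 further genes, of which 83 were in the table and 71 were tested. Of these 1 (1.41%) was called higher and 0 lower, where 2.64% of all tested genes were called higher and 1.88% lower. An unadjusted p under 0.05 (limma-trend) was found for 16 (22.5%), and for 18.1% of all tested genes. The median log2 fold change was 0.06. The called gene was *Abcc1*, a transporter of glutathione conjugates, with 456, 427 and 421 in Sirt6mKO and 305, 356 and 251 in controls, a log2 fold change of 0.53 (SE 0.13) and an adjusted p of 0.042. This call was lost without any of the 3 Sirt6mKO libraries in turn, without control replicate 3, under trimmed-mean scaling and without the filter on low values. The small MAF, BACH and CNC factors, the KEAP1 ligase genes, the further glutathione genes, the thioredoxin and selenoprotein genes and the further NADPH genes each had 0 called, with medians from -0.02 to 0.12. In the same order 2 of 6, 3 of 9, 1 of 15, 2 of 12 and 3 of 8 tested genes had an unadjusted p under 0.05, against the 18.1% of all tested genes given above.

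Beside these differences, marker genes of other cells and of the response to isolation moved between the groups. Of 10 immediate early and dissociation genes 5 were called higher, and their summed signal was 25626 to 28298 in Sirt6mKO and 15365 to 20872 in controls, without overlap. Of the 8 tested fibroblast markers 4 were called higher, all 8 had a log2 fold change above 0 and 7 an unadjusted p under 0.05, with a median of 1.66. *Pdgfra* had 14, 22 and 38 in Sirt6mKO and 9, 4 and 2 in controls, and *Clec3b* had 109, 22 and 78 in Sirt6mKO and 1, 0 and 0 in controls. The summed fibroblast signal overlapped (8806 to 10528 against 6503 to 10052), most of it from *Col3a1* (5795 to 8595 over the libraries), and *Ly6a*, the gene of the sorted-out SCA1, stood at 0 to 2 in all libraries. Of 12 myofiber markers 3 were called higher, with sums of 2248, 2301 and 947 in Sirt6mKO replicates 1, 2 and 3 and of 672 to 915 in controls. Sirt6mKO replicate 3, whose myofiber sum of 947 was the lowest of the Sirt6mKO libraries but above every control, had *Gstm1*, *Gstm2*, *Sod3* and *Tkt* at 1074, 263, 369 and 85. These values were above every control library. For *Gstm1*, *Sod3* and *Tkt* they were also the lowest of the Sirt6mKO libraries. The same library had the highest *Pdgfra* value, 38. Of the 13 quiescent MuSC markers 1 was called higher and 2 lower, with 7 at an unadjusted p under 0.05 (limma-trend). Their median log2 fold change was -0.03, and their sums overlapped (16673 to 18788 in Sirt6mKO and 16860 to 19862 in controls). *Pax7* was called lower, with 1841, 2307 and 1810 in Sirt6mKO and 4066, 3449 and 3150 in controls, as was *Chrdl2* of the same list. *Cd34*, a marker of the sort, was called higher, with 690, 855 and 882 against 439, 605 and 563. The Cre expressed from the *Pax7* locus and the loss of *Sirt6* came together in these mice, so their effects on *Pax7* cannot be told apart. *Myod1* was called lower and *Ckb* higher among the markers of myogenic commitment. The tenocyte sum was 61, 1070 and 406 in Sirt6mKO and 50 to 75 in controls with 0 of 6 called, and the erythroid sum was highest in control replicate 2 at 545. Endothelial, mural, Schwann and immune markers had 0 called of 2, 6, 4 and 1 tested, respectively. In the same order 1, 1, 0 and 0 had an unadjusted p under 0.05 (limma-trend). Of the 8 immune markers 2 were measured and only *Cd68* was tested, so this list says little about immune cells. The mural sum did not overlap (4344 to 5434 in Sirt6mKO and 2793 to 3830 in controls), most of it from *Notch3*, which is also on the quiescent MuSC list. The log2 fold changes were 0.53 for *Rgs5*, 0.35 for *Cspg4*, 0.09 for *Pdgfrb*, -0.02 for *Acta2* and -0.06 for *Myh11*, with overlapping groups in each. In RNA from sorted cells a change in the share of a cell type and a change in RNA per cell cannot be told apart, and the part of these markers in the antioxidant results was not tested.

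*Sirt6* itself had 19, 20 and 13 in Sirt6mKO and 18, 17 and 20 in controls, with a log2 fold change of -0.10 and an adjusted p of 0.91 (limma-trend). The value is summed over the whole gene, including exons outside the floxed part, and so checks neither the deletion nor the labels.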

How the data were processed

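MuSCs of 3 Sirt6mKO and 3 control samples were sequenced as 75-base single reads from 1 to 5 ng RNA. The labels name RiboGone and a SMARTer stranded kit, and the methods text RiboMinus and an Ion Total RNA-Seq kit. According to the methods and the submitters' processing notes, the authors trimmed the reads (Reaper or Trimmomatic 0.39), aligned them to mm10 with STAR 2.7.10a, counted them per gene with featureCounts 2.0.2 without reads on more than 1 gene or region, and analysed them with DESeq2 1.30.1. These versions are those of the processing notes, and the methods name other versions of STAR, featureCounts and DESeq2. Whether counting used strand is not stated. The deposited values are whole numbers of scaled signal, not counts. Factors of 0.558 to 1.372 were estimated from how often each low whole number occurred in a library. A read number of 0 allows an expected number of up to 3 reads, for counting error only.

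The limma-trend fit (limma 3.58.1, R 4.3.3) used the log2 of the signal plus a pseudocount of 1, took the 14227 genes whose mean signal reached 5, and had p-values adjusted by Benjamini-Hochberg over all of them. The adjusted p-values measure the spread between these samples, which may be technical. The fit was tested on simulated data. Gene positions came from GENCODE on GRCm38. Members, gene lists and tests were chosen with earlier results of these data known. Given per library were both regulators, called members, members with separate groups and a log2 difference of at least 0.5, the 5 highest per kb, those too low to test, and some others chosen after their values were seen. Python 3.11.15, numpy 2.4.6, pandas 2.3.3, scipy 1.17.1 and matplotlib 3.10.9 were used. The alternatives were 4 scalings, 2 filters, 2 pseudocounts, limma voom on the reads recovered from the values, a replicate block, robust empirical Bayes, a 2-fold minimum and each library left out. Promoters came from RefSeq.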

Additional observations from a re-analysis of the deposited data

How the results depend on the processing

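Of all tested genes 376 were called higher and 267 lower. With a mean signal of at least 50 these were 220 and 164, and with a 2-fold minimum 223 and 145, which by construction hold fewer genes. Leaving out 1 library gave 127 to 443 higher and 106 to 240 lower genes. Of the members 2 to 4 were called higher, the 2 being without Sirt6mKO replicate 1, and 3 with the 2-fold minimum. Of the other pathway genes 0 or 1 was called higher when 1 library was left out, 0 under trimmed-mean scaling, without the filter on low values and with the 2-fold minimum, and 1 was called lower under limma voom. The causes were not tested. With the replicate number as a block, 814 genes were called in place of 643, and the same 4 members were called. The numbers do not mark shared animals in the labels, and the deviations of same-numbered samples correlated by 0.023, 0.066 and 0.188, so that they were not treated as pairs. The deviations of Sirt6mKO replicates 1 and 2 correlated best with those of control replicate 2, by only 0.073 and 0.066.

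Of the members near 0 some changed sign, all without a call. Leaving out 1 library moved the log2 fold change of *Gstm7* between -0.56 and 0.10, *Gsta4* between -0.13 and 0.38, *Gstt3* between -0.17 and 0.18, *Gsto1* between -0.56 and 0.00, *Gclm* between -0.20 and 0.23, *Txn1* between -0.23 and 0.12, *Prdx2* between -0.03 and 0.22, *Sod2* between -0.02 and 0.10, *Gpx1* between -0.13 and 0.13, *Gpx4* between -0.28 and 0.14, *Gpx7* between -0.03 and 0.33, *Gpx8* between -0.03 and 0.23, and *Taldo1* between -0.15 and 0.19. Under limma voom *Gstt3* was at -0.04, *Gclm* at 0.03, *Txn1* at 0.04 and *Gpx7* at -0.01, and under trimmed-mean scaling *Gclm* was at 0.00. Depth limits *Nqo1*, *Hmox1*, *Me1*, *Slc7a11* and *Mgst3*, which had low signals.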
